A study of Mus musculus with 46 samples.

Results

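The expression and the nearby chromatin of 7 genes of cholesterol synthesis and efflux were followed in AgRP and POMC neurons of the mouse arcuate nucleus across fed, fasted and leptin-treated states. The genes were set by name. They comprise 4 synthesis enzymes (Hmgcs1, Idi1, Fdft1 and Sqle), 2 genes that control synthesis (Srebf2 and Insig1) and 1 efflux transporter (Abca1). All 7 had a row among the 31854 genes of the RNA count table, and all 7 were among the 13401 genes that passed the filter of a mean over 1 CPM, the count scaled to the library's total, in AgRP neurons. Of 123721 peaks of accessible chromatin in AgRP nuclei, 55 lay within 50 kb of a start site of the 7 genes (genome build mm10), and 48 of these were among the 102237 peaks that passed the same filter. Abca1 had 13 of the 55 peaks, Sqle 10, Fdft1 9, Idi1 8, Srebf2 7, Hmgcs1 5 and Insig1 3.

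RNA came from translating ribosome affinity purification (TRAP), in which NuTRAP mice that carry AgRP-IRES-Cre or POMC-IRES-Cre express a GFP-tagged ribosomal protein in cells where the Agrp or Pomc locus drives Cre, and the tagged ribosomes are pulled down with their mRNA. All mice were males on a C57BL/6J background, those with AgRP-IRES-Cre were 6 to 11 weeks old, and each library pooled the arcuate nuclei of 4 mice. Fed mice had chow ad libitum and received PBS, fasted mice went without food for 18 to 20 hours overnight and received PBS, and leptin mice were fasted in the same way and received 5 mg/kg leptin i.p., all 3 hours before tissue collection. The study gives this age and schedule for mice with AgRP-IRES-Cre and does not restate them for those with POMC-IRES-Cre. There were 3 fed, 4 fasted and 4 leptin libraries of AgRP neurons, 2 libraries per state of POMC neurons, and 2 ATAC-seq libraries per state of sorted AgRP nuclei, which measure accessible chromatin. Sorted AgRP-positive and AgRP-negative nuclei gave 2 further ATAC-seq libraries each, and the study's methods give no feeding state for these. Library totals were 25581041 to 54511107 counts for RNA, 8263234 to 17190963 for ATAC-seq of the 3 states and 8685497 to 11177208 for the sorted nuclei. The 7 AgRP neuron markers summed to 1723 to 6650.5 CPM in AgRP libraries and 155 to 236 CPM in POMC libraries, while the 5 POMC neuron markers summed to 134 to 191 CPM and 1701 to 3108 CPM.

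Cells make cholesterol from acetyl-CoA through the mevalonate pathway. When sterols are low, the transcription factor encoded by Srebf2 is released from the endoplasmic reticulum and turns on the genes of synthesis and uptake, and Insig1 protein holds it back when sterols are high. Excess cholesterol leaves the cell through ABCA1, whose gene is a target of the oxysterol receptors LXR, and in the brain the efflux of cholesterol onto apolipoprotein E is largely a task of glia, while mature neurons keep a lower rate of synthesis.

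In GENCODE on GRCm38, Hmgcs1 lies at chr13:119690379-119708260 and Idi1 at chr13:8885501-8892451, both on the plus strand. Sqle at chr15:59315077-59331192 and Srebf2 at chr15:82147181-82205379 share another chromosome and the same strand, and Insig1 lies at chr5:28071363-28078662, also on the plus strand. Fdft1 at chr14:63145150-63179578 and Abca1 at chr4:53030787-53159895 are on the minus strand.

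The promoters of Hmgcs1 and Srebf2 are shown, and both lay under an ATAC-seq peak and both genes had a lower mean in fasted mice. Idi1 and Insig1 also had an ATAC-seq peak near their start and a lower mean in fasted mice, and their promoters are not shown. The promoters shown run from 250 bases before to 50 bases after the RefSeq start (build GRCm38.p6), 5′ to 3′ on the strand of the gene, at chr13:119690101-119690400 and chr15:82147019-82147318. Capitals mark the sterol response element TCACNCCAC and the NF-Y box CCAAT, searched on both strands, so that a box on the other strand reads ATTGG.
Hmgcs1 promoter: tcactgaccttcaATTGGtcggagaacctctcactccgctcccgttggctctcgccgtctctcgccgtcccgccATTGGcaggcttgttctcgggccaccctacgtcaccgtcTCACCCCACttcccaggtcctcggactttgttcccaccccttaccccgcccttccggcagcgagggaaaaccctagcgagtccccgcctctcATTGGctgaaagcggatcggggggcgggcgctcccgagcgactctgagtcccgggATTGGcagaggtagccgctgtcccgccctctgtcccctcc
Srebf2 promoter: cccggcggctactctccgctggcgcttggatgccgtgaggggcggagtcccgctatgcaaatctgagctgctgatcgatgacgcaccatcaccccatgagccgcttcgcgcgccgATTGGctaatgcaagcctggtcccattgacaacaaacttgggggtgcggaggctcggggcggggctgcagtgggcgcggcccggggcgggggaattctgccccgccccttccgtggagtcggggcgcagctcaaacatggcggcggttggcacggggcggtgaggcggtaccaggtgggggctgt
The Hmgcs1 promoter held 1 sterol response element and 4 NF-Y boxes, and the Srebf2 promoter held 1 NF-Y box. Of 32817 RefSeq promoters of this length, 1.24% held the sterol response element and 37.4% an NF-Y box. The promoters of Idi1 and Insig1 held 2 and 1 NF-Y boxes and no sterol response element, and that of Abca1 held neither motif. The sterol response element was searched without mismatches. Its absence from a promoter therefore cannot tell whether a looser sterol site is present. Promoters of 5 of the 7 genes were matched, and those of Sqle and Fdft1 were not.

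In AgRP neurons of fed mice, expression per kilobase of the gene length given with the counts was highest for Fdft1, at 79.4 ± 9.07 CPM per kb (SD, n = 3). Hmgcs1 at 51.5 ± 2.61 and Srebf2 at 50.6 ± 6.81 CPM per kb (SD, n = 3) came next and did not differ beyond their spread. Sqle, which oxidizes squalene, stood at 30.0 ± 1.58, Insig1 at 20.6 ± 1.93, Abca1 at 5.49 ± 1.21 and Idi1, the isomerase of isopentenyl diphosphate, at 2.08 ± 0.110 CPM per kb (SD, n = 3). The ranges of these lower members did not overlap between neighbours. The place of Fdft1 is uncertain: its row has a length of 8440 bases against 4227 exon bases in GENCODE, and Ctsb, on the opposite strand, overlaps its end and has no row, so that reads of the pair cannot be told apart without strand. Lengths of the Sqle row also differed, at 2748 against 5546 exon bases. Per kilobase of GENCODE exons, an alternative chosen after seeing the data, Sqle was at 14.8 ± 0.783 and Insig1 at 17.7 ± 1.65 CPM per kb (SD, n = 3), so that the order of this pair turned. Hmgcs1 was then at 50.7 ± 2.57 and Srebf2 at 40.3 ± 5.44 CPM per kb (SD, n = 3), and the places of the other members did not change.

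With fasting no member moved past both thresholds of a call, an FDR under 0.05 and a log2 fold change beyond 0.5 in either direction, but most of the synthesis genes stood lower in fasted than in fed AgRP neurons. With edgeR's quasi-likelihood test and Benjamini-Hochberg adjustment, 0 of 7 members were called higher and 0 lower, against 2.82% and 1.07% of all genes tested, and 3 of 7 had an unadjusted p under 0.05, against 19.3%, all 3 lower. DESeq2 also called 0 of 7, against 4.93% of genes, though it gave Sqle an FDR of 0.0424 and Srebf2 an FDR of 0.034. Both were lower by less than the fold change minimum. Scaling by library size alone changed the split of all genes called from 378 higher and 143 lower to 148 and 90, and the sign of no member. Libraries with the same replicate number deviated together in AgRP neurons, and a fit with the number as a block brought 3 of 7 members under an FDR of 0.05, all lower, against 9.3% of genes lower and 15.2% higher. All 3 remained under the fold change minimum. The block fits also used edgeR, and "by edgeR" means the fit without the block.

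Hmgcs1, which makes HMG-CoA at the entry of the pathway, was at 223, 229.7 and 246 CPM in the 3 fed libraries, 182, 225, 194 and 157 in the 4 fasted and 189, 218, 209 and 186 in the 4 leptin libraries. All but 1 of the fasted libraries lay below every fed library, and the fed level was not regained with leptin. Log2 fold changes are given with ± 1 SE throughout. That of fasted against fed was -0.29 ± 0.11 with an FDR of 0.181 by edgeR, and -0.36 ± 0.07 with an FDR of 0.00332 with the replicate block.

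Sqle was at 77.5, 83.4 and 86.0 CPM in fed libraries, 61.4, 72.4, 66.9 and 61.5 in fasted and 53.2, 67.6, 67.7 and 62.8 in leptin libraries. The fed libraries lay above all others. Its log2 fold change with fasting was -0.32 ± 0.10, FDR 0.109 by edgeR, and -0.36 with an FDR of 0.00149 with the block.

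Srebf2, the transcription factor gene, was at 249.2, 293 and 327 CPM in fed libraries, 203, 236, 227 and 225 in fasted and 199.6, 238, 237 and 250.1 in leptin libraries. Fed and fasted libraries did not overlap, while 1 leptin library reached above the lowest fed library. Its log2 fold change with fasting was -0.37 ± 0.12, FDR 0.116 by edgeR, and -0.38 with an FDR of 0.000412 with the block. The row also spans Mir33, a microRNA in an intron of Srebf2, whose own row held 0 counts in every library.

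Idi1 was at 5.88, 5.71 and 6.32 CPM in fed and 4.92, 6.27, 4.08 and 3.64 CPM in fasted libraries, which overlapped. Its log2 fold change was -0.32 ± 0.18, with an FDR of 0.369 by edgeR and 0.0889 with the block. Insig1 was at 51.1, 52.4 and 60.5 CPM in fed and 42.1, 57.9, 44.7 and 44.3 CPM in fasted libraries, with 1 fasted library among the fed. Its log2 fold change was -0.20 ± 0.11, FDR 0.389 by edgeR and 0.0614 with the block. Fdft1, squalene synthase, ran from 578 to 739 CPM over the 11 libraries with overlap of all states, and its log2 fold change with fasting was -0.01 ± 0.14. This row may also count reads of Ctsb. In each of the 3 replicate numbers shared by fed and fasted mice, Hmgcs1, Sqle, Idi1, Insig1 and Srebf2 were lower in the fasted library.

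**Figure D1:**
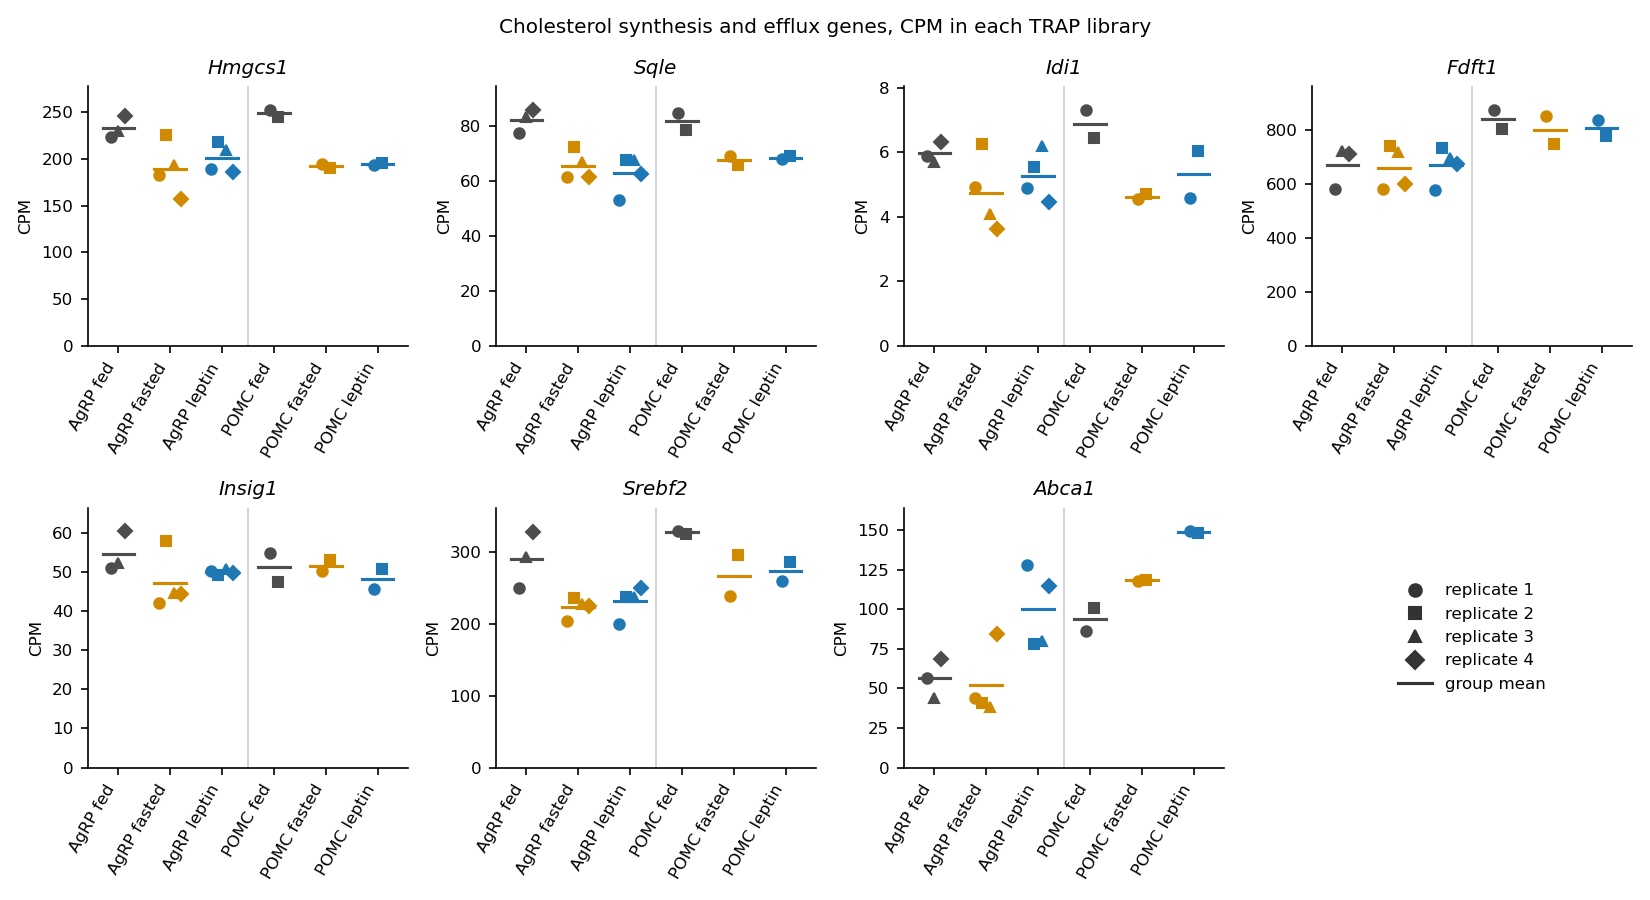
Expression of the 7 genes as CPM (y axis, from 0) in each TRAP library by cell type and state (x axis), with 1 symbol per replicate number and a bar at each group's mean. The 3 fed AgRP libraries of Sqle lie above all 4 fasted libraries, and Abca1 in leptin-treated AgRP neurons spans 77.8 to 128 CPM.

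The other genes of the pathway give the setting of these values. Of 20 synthesis enzymes, all tested, 16 had a lower and 4 a higher mean in fasted AgRP neurons, the median log2 fold change was -0.22 against 0.02 over all genes, and 0 were called by edgeR. At an unadjusted p under 0.05, 9 were lower and 1 higher, and at an FDR under 0.05 alone 1 was lower, Msmo1, a sterol C4 oxidase (82.5, 77.3 and 82.6 CPM in fed and 62.9, 66.9, 58.4 and 54.9 CPM in fasted libraries, log2 fold change -0.40 ± 0.08, FDR 0.0125), which is named here after its values were seen. With the replicate block, 10 were lower and 1 higher at an FDR under 0.05, again under the fold change minimum. The 1 higher was Cyp51, lanosterol demethylase, at 89.4, 87.0 and 78.6 CPM in fed and 103, 109, 111 and 85.5 CPM in fasted libraries, a log2 fold change of 0.24 with an FDR of 0.0105 with the block and 0.187 without. Lss, lanosterol synthase, had a log2 fold change of -0.12 ± 0.31, FDR 0.900.

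Among 6 tested genes of uptake and transport, Stard4, a carrier of sterols between membranes, fell with fasting: it was at 58.4, 54.1 and 63.9 CPM in fed and 37.0, 41.4, 37.0 and 41.0 CPM in fasted libraries, without overlap, a log2 fold change of -0.58 ± 0.09 with an FDR of 0.00574 by edgeR. Mylip, a ubiquitin ligase that is a target of LXR, had a log2 fold change of 0.00 ± 0.14. The 6 tested genes of SREBP control, which include Srebf2 and Insig1, had a median log2 fold change of -0.07 with 0 called by edgeR and 1 at an unadjusted p under 0.05. The 8 genes of efflux and storage had a median of -0.11, with 0 called and 0 at an unadjusted p under 0.05.

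Markers of other cells moved in the same comparison. All 6 astrocyte markers had a lower mean in fasted AgRP libraries, with a median log2 fold change of -0.28 and a summed level of 531 to 866 CPM in fed and 426 to 915 CPM in fasted libraries. Of 6 oligodendrocyte markers 5 were lower, with a median of -0.36 and summed levels of 546 to 836 and 477 to 763 CPM. All 4 microglia markers that passed the filter in AgRP libraries were lower with a median of -0.66, and the summed level of 5, which passed it over both cell types, was 21.9 to 39.7 CPM in fed and 15.6 to 37.4 CPM in fasted libraries. In contrast, 3 of 5 tested tanycyte and ependymal markers were higher with a median of 0.12 and summed levels of 66.8 to 139 and 55.2 to 212 CPM. In these 4 lists 0 markers were called by edgeR without the block, 5 were lower at an unadjusted p under 0.05, and with the block 4 were called lower. All 7 AgRP neuron markers were higher, with a median log2 fold change of 0.66. The part of these shifts in the lower level of the synthesis genes was not tested, and in such pools fewer cells of a type and less RNA per cell cannot be told apart.

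**Figure D2:**
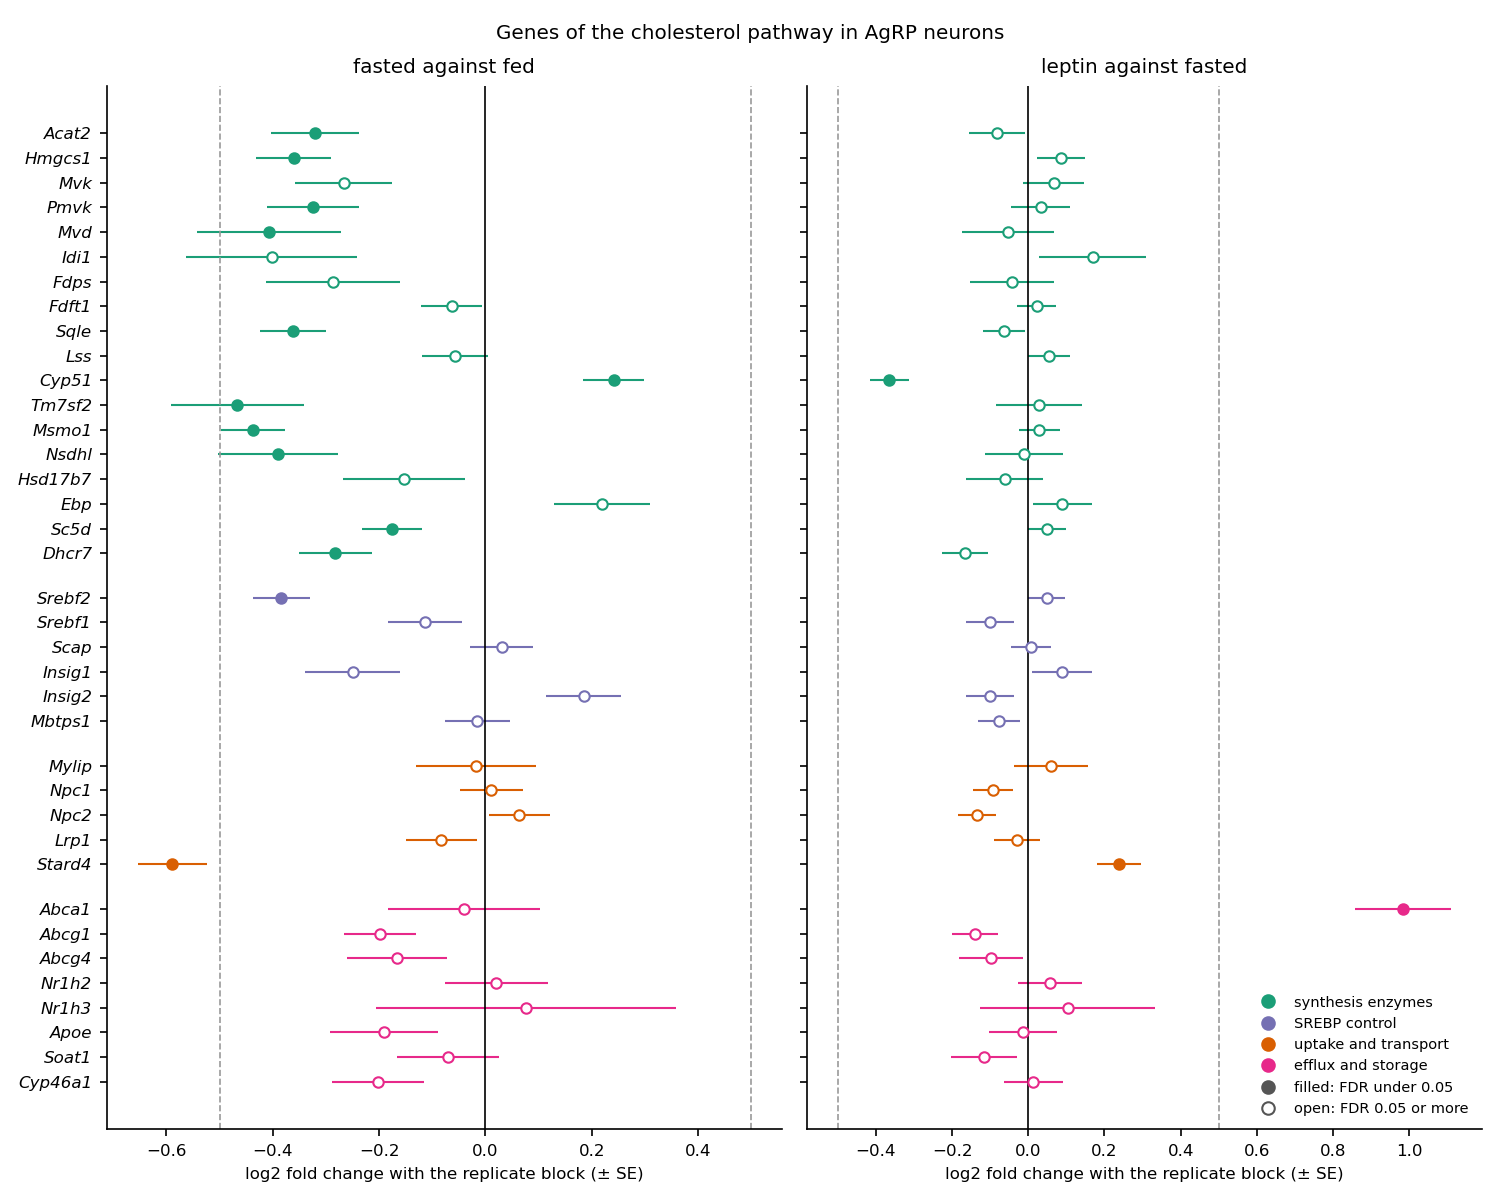
Log2 fold change with its SE (x axis) of most tested genes of 4 cholesterol lists (y axis) in AgRP neurons, from the fit with the replicate block. Filled points have an FDR under 0.05 and dashed lines mark the fold change minimum. Most synthesis enzymes lie left of 0 with fasting and Abca1 lies near 0.98 with leptin.

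Leptin given to fasted mice left the synthesis members near their fasted level while Abca1, the efflux pump, stood higher. Abca1 was at 56.7, 43.7 and 68.5 CPM in fed, 44.0, 41.1, 38.5 and 84.4 in fasted and 128, 77.8, 80.2 and 115 CPM in leptin libraries of AgRP neurons. The 2 groups of 4 overlapped through fasted replicate 4 alone, and every leptin library lay above every fed library. Within each of 4 replicate numbers the leptin library was higher than the fasted one, by 1.36- to 2.92-fold, and within each of 3 numbers it was higher than the fed one, by 1.68- to 2.26-fold.

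The paper lists Abca1 among the transporter genes induced by leptin in AgRP neurons, by edgeR's quasi-likelihood test at the same thresholds. That call was not met here without the block, and the reason was not tested. The log2 fold change of Abca1, leptin against fasted, was 0.94 ± 0.28 with an FDR of 0.163 by edgeR, and therefore not called. With the replicate block it was 0.98 ± 0.13 with an FDR of 0.000377, and without fasted replicate 4 it was 1.30 with an FDR of 0.00807, so that both alternatives called it, as DESeq2 did (FDR 0.0184). Of 16 alternative settings only these 3 called it, and FDRs ran up to 0.427. The members called by edgeR were thus 0 higher and 0 lower of 7, against 1.19% and 0.634% of genes, with 1 at an unadjusted p under 0.05 against 9.13%. Abca1 was the 1 member called higher with the block and by DESeq2, against 1.81% and 1.57% of genes. The other 6 members had log2 fold changes of -0.06 for Sqle to 0.16 for Idi1 and FDRs of 1.0, and none of them passed an unadjusted p of 0.05.

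Of the 20 synthesis enzymes, 10 were higher and 10 lower with leptin than in fasted mice, with a median log2 fold change of 0.01, and 0 were called by edgeR with 2 lower at an unadjusted p under 0.05. With the block, 2 were lower at an FDR under 0.05. Cyp51 was at 81.4, 83.9, 88.0 and 64.9 CPM in leptin libraries, a log2 fold change of -0.36 ± 0.05 with an FDR of 0.000684 with the block and 0.114 without. Stard4 was at 42.5, 45.8, 47.1 and 48.9 CPM, between its fed and fasted levels without overlap with either, a log2 fold change of 0.24 from fasted with an FDR of 0.0263 with the block and 0.348 without.

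In the efflux list Abca1 alone was called with the block. Abcg1, which exports cholesterol to lipoprotein particles, was at 122, 113, 116 and 163 CPM in fasted and 107, 104, 99.7 and 159 CPM in leptin libraries, a log2 fold change of -0.13 ± 0.18, FDR 1.0 by edgeR. Nr1h2, which encodes an LXR, had a log2 fold change of 0.06 ± 0.11, and Mylip one of 0.07 ± 0.13. The astrocyte and oligodendrocyte markers were all higher with leptin than in fasted mice, with medians of 0.10 and 0.12 on the log2 scale and 0 of 12 at an unadjusted p under 0.05, and the part of this in the level of Abca1 was not tested.

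In leptin-treated mice, which had also been fasted, the libraries of Abca1 lay above and those of Sqle below all fed libraries, and neither gene was called by edgeR without the block. Abca1 had a log2 fold change of 0.84 ± 0.31, FDR 0.121 by edgeR, and was called with the block (0.94, FDR 0.000556), by DESeq2 (FDR 0.0438) and without fasted replicate 4 (FDR 0.0256). Of 16 alternative settings only these 3 called it, and FDRs ran up to 0.300. Sqle was lower, with a log2 fold change of -0.38 ± 0.10, and its FDR of 0.0448 passed the threshold by edgeR though not the fold change minimum. Srebf2 stood at -0.32 with an FDR of 0.143, or 0.000822 with the block, and Hmgcs1 at -0.21 with an FDR of 0.303, or 0.0115 with the block.

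In that comparison 0 of 7 members were called by edgeR in either direction, against 3.73% of genes higher and 1.75% lower, and 3 of 7 had an unadjusted p under 0.05 against 23.1%. At an FDR under 0.05 alone 1 was lower, against 3.09%, and with the block 3 were lower, against 12.5%. The 1 member called higher with the block and by DESeq2 stands against 5.34% and 4.15% of genes. Of the 20 synthesis enzymes 18 had a lower mean than in fed mice, with a median log2 fold change of -0.22 against 0.01 over all genes. None was called by edgeR, 7 were lower and 0 higher at an unadjusted p under 0.05, and with the block 10 were lower and 1 higher at an FDR under 0.05. The comparisons with fed and with fasted mice share libraries.

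**Figure D3:**
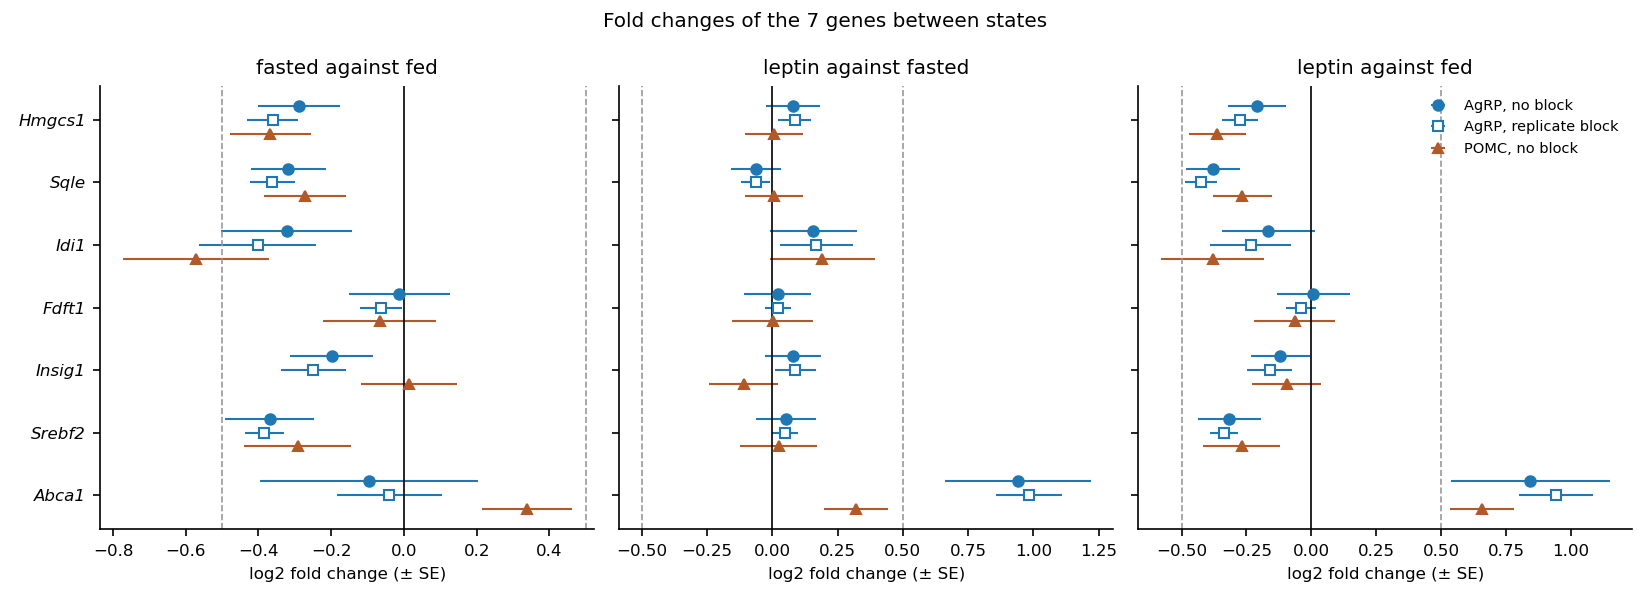
Log2 fold change (x axis) with its SE as a horizontal bar for the 7 genes (y axis) in AgRP neurons without and with the replicate block and in POMC neurons. Dashed lines mark the fold change minimum. Hmgcs1, Sqle, Idi1 and Srebf2 lie left of 0 with fasting in both cell types, and Abca1 lies right of 0 with leptin in both.

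POMC neurons, the appetite-reducing counterpart of AgRP neurons, had 2 libraries per state. Abca1 was at 86.5 and 101 CPM in fed, 118 and 119 in fasted and 149 and 148 CPM in leptin libraries, without overlap between states. Hmgcs1 was at 252 and 245 CPM in fed, 195 and 190.0 in fasted and 194 and 196 CPM in leptin libraries. Both fed libraries lay above all others.

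For fasted against fed POMC neurons, edgeR called 0 of 7 members, against 0.0% of genes, and 3 of 7 had an unadjusted p under 0.05, against 2.1%. These were Hmgcs1 with a log2 fold change of -0.37 ± 0.11, Idi1 with -0.57 ± 0.20 and Abca1 with 0.34 ± 0.12, each at an FDR of 1.0. DESeq2 called 0 of 7, against 0.0224%. All 20 synthesis enzymes had a lower mean in fasted POMC neurons, with a median log2 fold change of -0.17 against 0.00 over all genes, 0 called by edgeR, and 5 lower and 0 higher at an unadjusted p under 0.05.

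For leptin against fasted POMC neurons, edgeR called 0 of 7, against 0.0%, DESeq2 called 0 of 7, against 0.0746%, and 1 had an unadjusted p under 0.05, against 1.13%, namely Abca1 with a log2 fold change of 0.32 ± 0.12. For leptin against fed, edgeR called 0 of 7, against 0.0%, and 2 of 7 had an unadjusted p under 0.05, against 2.1%. DESeq2 called 1 of 7, Abca1, against 0.0522% of genes, with a log2 fold change of 0.66 and an FDR of 0.0283, where edgeR gave 0.66 ± 0.12 and an FDR of 1.0. With the replicate number as a block it was 0.66 ± 0.08 with an FDR of 0.0218, and Abca1 was then the 1 member called higher, against 0.194% of genes.

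Abca1 was lower in AgRP than in POMC neurons, without overlap of libraries in any of the 3 states. Between fasted mice its log2 difference was -1.19 ± 0.28, FDR 0.0108 by edgeR, the 1 member called lower, against 5.33% of genes. This call was lost when only libraries of the fasted state were fitted (FDR 0.0560) and without POMC fasted replicate 1 (FDR 0.0552) or 2 (FDR 0.0627). Between fed mice the difference was -0.73 ± 0.30, FDR 0.282. Here 0 of 7 were called by edgeR, against 3.21%, and by DESeq2, against 4.39%, and 2 of 7 had an unadjusted p under 0.05, against 13.4%.

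Between leptin-treated mice the difference of Abca1 was -0.57 ± 0.29, FDR 0.198, with 0 of 7 called by edgeR, against 11.1%, and by DESeq2, against 12.7%, and 0 of 7 at an unadjusted p under 0.05, against 29.9%. Fdft1 was also lower in AgRP libraries of each state without overlap, with log2 differences of -0.32 in fed, -0.27 in fasted and -0.27 in leptin-treated mice and FDRs of 0.366, 0.193 and 0.218. The Fdft1 row may also count reads of Ctsb, so this difference may not be that of Fdft1 alone. Srebf2 had log2 differences of -0.17 in fed, -0.26 in fasted and -0.24 in leptin-treated mice and FDRs of 0.690, 0.171 and 0.216. Its libraries overlapped between fed mice, while in the other states those of AgRP neurons lay below those of POMC neurons, with FDRs of 0.0123 and 0.0157 with a block on number, under the fold change minimum. That block ties same-numbered AgRP and POMC libraries, which did not deviate together (r = -0.58 to 0.417, median 0.109), so its FDRs carry no weight of a pairing. Hmgcs1, Sqle, Idi1 and Insig1 differed between the cell types by at most 0.21 on the log2 scale in any state. Cell type and mouse line cannot be told apart here. In fasted mice the median summed astrocyte markers were 434 CPM in AgRP and 845 CPM in POMC libraries. Microglia markers were at 16.4 and 37.3 CPM, and tanycyte and ependymal markers at 67.1 and 147 CPM. Oligodendrocyte markers were at 531 and 720 CPM in fasted but 749 and 660 CPM in fed mice. Ranges overlapped in each case, and the part of these levels in the Abca1 difference was not tested.

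Whether the effects themselves differed between the cell types was tested as an interaction. For fasting, 0 of 7 members were called by edgeR, against 0.164% of genes, 0 by DESeq2, against 1.23%, and 0 had an unadjusted p under 0.05, against 8.96%. For leptin, 0 were called by edgeR, against 0.0819%, 0 by DESeq2, against 0.29%, and 0 had an unadjusted p under 0.05, against 2.9%. The leptin effect on Abca1 was larger in AgRP neurons by 0.62 ± 0.41 on the log2 scale, with an FDR of 1.0, or 0.198 with a replicate block within each cell type. Cyp51 differed with that block: its fasting effect was 0.63 ± 0.10 higher in AgRP than in POMC neurons on the log2 scale (FDR 0.00164, or 0.248 without the block) and its leptin effect -0.53 (FDR 0.0194, or 1.0 without). Cyp51 was at 86.2 and 68.6 CPM in fed, 62.0 and 55.4 in fasted and 67.5 and 63.5 CPM in leptin libraries of POMC neurons.

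Chromatin near the 7 genes was next compared in sorted AgRP nuclei. The 3 Abca1 peaks that were called higher with fasting or leptin are shown as the central 300 bases of each, on the plus strand of GRCm38, while Abca1 lies on the minus strand. They lie at chr4:53169371-53169670, 9.6 kb upstream of the start site, at chr4:53181525-53181824, 21.8 kb upstream, and at chr4:53140408-53140707, 19.3 kb downstream in an intron of Abca1. The first and second are intergenic. Capitals mark matches on either strand to AP-1 (TGANTCA), STAT (TTCNNNGAA) and NF-Y (CCAAT).
Abca1 peak 9.6 kb upstream: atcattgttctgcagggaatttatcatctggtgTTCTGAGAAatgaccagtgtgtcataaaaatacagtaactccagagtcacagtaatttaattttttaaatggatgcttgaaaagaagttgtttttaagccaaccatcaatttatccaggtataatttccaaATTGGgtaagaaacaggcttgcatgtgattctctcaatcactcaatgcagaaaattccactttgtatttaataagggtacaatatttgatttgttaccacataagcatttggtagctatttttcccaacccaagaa
Abca1 peak 21.8 kb upstream: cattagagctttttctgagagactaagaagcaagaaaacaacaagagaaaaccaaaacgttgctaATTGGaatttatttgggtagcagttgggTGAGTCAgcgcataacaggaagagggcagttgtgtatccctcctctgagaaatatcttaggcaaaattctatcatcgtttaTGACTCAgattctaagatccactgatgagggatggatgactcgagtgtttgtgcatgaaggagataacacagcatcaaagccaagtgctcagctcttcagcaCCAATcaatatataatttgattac
Abca1 peak 19.3 kb downstream: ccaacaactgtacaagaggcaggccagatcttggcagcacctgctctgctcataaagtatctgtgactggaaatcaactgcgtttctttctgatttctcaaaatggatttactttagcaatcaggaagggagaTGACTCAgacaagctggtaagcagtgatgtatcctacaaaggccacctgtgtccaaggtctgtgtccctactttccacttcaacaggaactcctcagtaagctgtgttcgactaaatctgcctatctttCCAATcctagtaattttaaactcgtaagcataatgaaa
The first held 1 STAT match, the second 2 AP-1 matches and the third 1 AP-1 match, and each held an NF-Y box. Among windows of 102204 peaks, 12.4% held the STAT motif, 32.2% the AP-1 motif and 32.7% the NF-Y box, and among the 55 peaks near the 7 genes 9, 14 and 19 did. Sp1 (GGGCGG) was in 12 of the 55, against 14.5%, and the E-box CACGTG in 5, against 4.87%. Neither the sterol response element (1.14% of windows) nor the LXR repeat of AGGTCA spaced by 4 bases (0.0225%) was in any of the 55 windows. Both were searched without mismatches, and only 23 of 102204 windows held the LXR repeat. Their absence therefore cannot tell whether looser sterol or LXR sites are present. Only the central 300 bases of each peak were searched. The sterol response element of the Hmgcs1 promoter lies outside the window of its start-site peak.

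With fasting, peaks near the members changed in both directions. Of 48 tested peaks 4 were called higher and 6 lower in fasted against fed nuclei by edgeR, against 18.1% and 8.88% of all peaks. Without fasted replicate 1 the lower peaks numbered 1. The 4 higher lay at Abca1, Sqle, Fdft1 and Srebf2. The Abca1 peak 21.8 kb upstream was at 8.56 and 11.8 CPM in the 2 fed libraries, 31.0 and 30.7 in fasted and 36.6 and 36.0 CPM in leptin libraries. It rose with fasting by a log2 fold change of 1.56 ± 0.23, FDR 1.0e-04, and was not called after leptin (0.23 ± 0.19, FDR 0.665).

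A peak 49.3 kb upstream of Sqle was at 1.49 and 1.87 CPM in fed, 7.78 and 7.28 in fasted and 9.72 and 9.60 CPM in leptin libraries, a log2 fold change of 2.12 ± 0.40 with fasting, FDR 0.000736. The direction of this distant peak was opposite to that of the Sqle mRNA. A peak in an exon of Ctsb, 44.1 kb downstream of the Fdft1 start, was at 0.869 and 0.937 CPM in fed and 3.63 and 4.67 CPM in fasted libraries, a log2 fold change of 2.18 ± 0.49, FDR 0.00271. The fourth, in an intron of Srebf2 16.4 kb from its start, was at 3.72 and 2.16 CPM in fed and 7.90 and 6.78 CPM in fasted libraries, a log2 fold change of 1.41, FDR 0.00840. The 6 lower peaks comprised 2 near Sqle, 2 near Idi1, 1 at Srebf2 and 1 at Abca1, with log2 fold changes of -1.52 to -0.67. The one nearest 0 sits at the promoter of Wdr37, the neighbour of Idi1.

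At the start sites the members shared a direction. The 7 peaks nearest to the start sites all had a lower mean in fasted than in fed nuclei, with log2 fold changes of -0.66 at Abca1 to -0.19 at Sqle, a median of -0.36 against -0.04 over all peaks. Start-site peaks of other genes were not compared, so whether this direction is particular to the 7 genes was not tested. None of the 7 was called by edgeR with all libraries, and that of Idi1 was called lower without fasted replicate 1 (-0.63, FDR 0.0264) or fed replicate 1 (-0.52, FDR 0.0389). Idi1, Insig1 and Srebf2 had FDRs of 0.0247, 0.0160 and 0.0456 with changes under the fold change minimum. The Hmgcs1 promoter peak was at 128 and 128 CPM in fed and 114 and 102 CPM in fasted libraries (-0.24 ± 0.11, FDR 0.0939), and the Srebf2 promoter peak at 88.5 and 96.6 and 77.0 and 67.9 CPM (-0.36 ± 0.13). Each pair of libraries stood apart from the other.

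With leptin after fasting, 2 of the 48 peaks were called higher, against 2.41% of peaks, and both lay at Abca1. The peak 9.6 kb upstream was at 2.11 and 2.16 CPM in fed, 1.47 and 3.80 in fasted and 7.77 and 10.3 CPM in leptin libraries. Leptin libraries lay above all others, with a log2 fold change of 1.79 ± 0.35 from fasted, FDR 0.00569 by edgeR. The call was lost without fasted replicate 1 (1.27, FDR 0.181) or leptin replicate 2 (1.56, FDR 0.132).

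The peak 19.3 kb downstream was at 3.35 and 4.97 CPM in fed, 5.61 and 4.05 in fasted and 15.9 and 11.1 CPM in leptin libraries, with leptin libraries again above all others. Its log2 fold change from fasted was 1.47 ± 0.30, FDR 0.00758, and the call was lost without fasted replicate 2 (1.25, FDR 0.0754) or leptin replicate 1 (1.21, FDR 0.135). No member peak was called lower, against 0.669%: edgeR and DESeq2 both called 0 of 48, the latter against 0.337%, and 1 was lower at an unadjusted p under 0.05, against 5.67%. The promoter peaks of the 7 genes ranged from -0.29 at Srebf2 to 0.40 at Abca1.

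**Figure D4:**
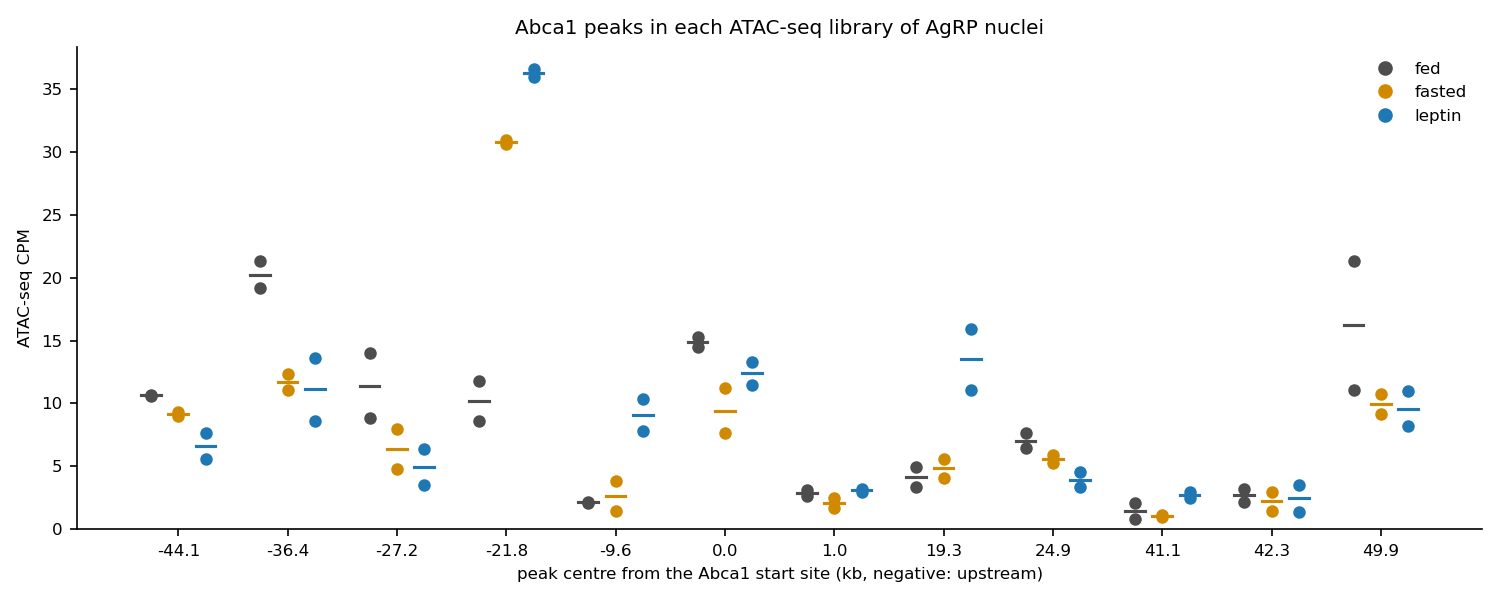
ATAC-seq CPM (y axis, from 0) of the 12 tested peaks within 50 kb of the Abca1 start site, ordered by distance from it (x axis, in kb), with 1 point per library and a bar at each state's mean. The peaks at -9.6 and 19.3 kb are highest in leptin libraries, and the peak at -21.8 kb is higher in fasted and leptin than in fed libraries.

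Against fed nuclei, leptin-treated nuclei had 13 of 48 peaks higher and 8 lower, against 23.3% and 13.4% of all peaks. Without leptin replicate 1 the lower peaks numbered 2. The higher peaks numbered 3 each at Abca1, Fdft1 and Srebf2 and 2 each at Sqle and Idi1. The largest were the Ctsb exon peak near Fdft1, with a log2 fold change of 2.70 ± 0.46, and a peak 26.9 kb downstream of Idi1 at 0.124 and 0.577 CPM in fed and 2.36 and 2.96 CPM in leptin libraries, with 2.69 ± 0.64, FDR 0.00279. The latter rests on 1 and 8 counts in the fed libraries, and its log2 fold change was 2.18 without fed replicate 1 and 4.33 without fed replicate 2, with the peak called in both. The Srebf2 promoter peak, at 59.9 and 58.7 CPM in leptin libraries, was the 1 start-site peak called lower, with a log2 fold change of -0.64 ± 0.13, FDR 0.000789. All 7 start-site peaks had a lower mean than in fed nuclei, with a median of -0.36. With all libraries no peak near Hmgcs1 or Insig1 was called by edgeR in any comparison of the 3 states, but the Insig1 start-site peak was called lower in leptin-treated than in fed nuclei without fed replicate 1 (-0.54, FDR 0.00398) or leptin replicate 2 (-0.57, FDR 0.00588).

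**Figure D5:**
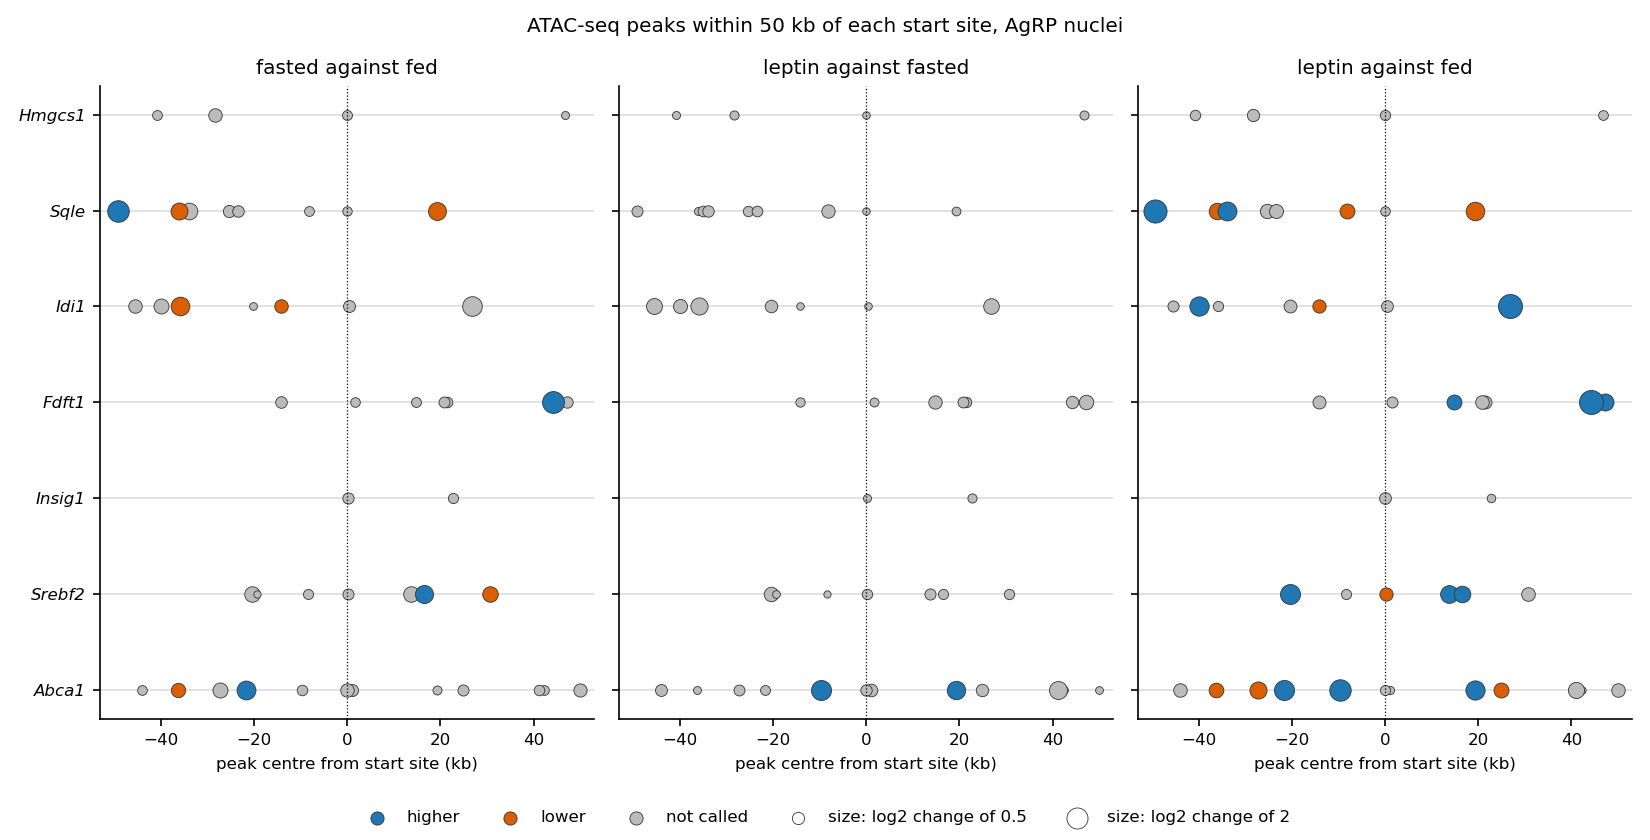
Each tested peak within 50 kb of the 7 start sites, by the distance of its centre from the start site (x axis, in kb) and gene (y axis), in 3 comparisons. Point area grows with the absolute log2 fold change, and colours mark peaks called higher, lower or not. With leptin against fasted mice the 2 called peaks both lie at Abca1.

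In the separate libraries of sorted nuclei, 41 of 67472 peaks lay within 50 kb of the 7 start sites and 39 were tested. In AgRP-positive against AgRP-negative nuclei 9 were called higher and 4 lower, against 23.9% and 15.6% of all peaks, and without negative replicate 1 the higher peaks numbered 5. Scaling by library size alone changed the calls over all peaks from 15937 higher and 10399 lower to 18223 and 7297, with a median shift of all peaks of 0.16 on the log2 scale. Abca1 had 6 of the 9 higher peaks. These included the one that overlapped the peak 9.6 kb upstream, at 7.55 and 4.58 CPM in the 2 positive and 0.985 and 0.71 CPM in the 2 negative libraries (2.82 ± 0.52, FDR 6.7e-07). Those that overlapped the peaks 21.8 kb upstream (1.31 ± 0.28, FDR 1.9e-05) and 19.3 kb downstream (1.48 ± 0.46, FDR 0.00454) were also higher in positive nuclei.

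The 3 Abca1 peaks that rose with fasting or leptin were each higher in AgRP-positive than in AgRP-negative nuclei. The peak 36.4 kb upstream of Abca1, called lower with fasting (-0.78), was also lower in positive nuclei, at 16.3 and 23.2 against 35.0 and 35.9 CPM (-0.84 ± 0.16, FDR 3.0e-06). The 7 start-site peaks had lower means in positive nuclei, from -0.33 at Srebf2 to -0.08 at Hmgcs1 with 0 called by edgeR at the fold change minimum and an FDR under 0.05 at Srebf2 alone (0.0186), and under scaling by library size alone only those of Idi1 and Srebf2 stayed lower, with the other 5 at log2 fold changes of 0.01 to 0.09. In contrast, the peak 24.9 kb downstream of Abca1 was called lower in leptin-treated than in fed nuclei (-0.88) and higher in positive nuclei (1.57, FDR 0.000405). Positive and negative nuclei came from the same pools.

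The genes most like the members over the 11 AgRP libraries were found by Pearson correlation of log2(CPM + 1) among 13394 other genes, as a description over libraries that share states. For the mean profile of the 4 synthesis members, including the uncertain Fdft1 row, they were Ctnnd2, Ndrg3.2, Rccd1, Gpx1 and Ciart, with r of 0.93 to 0.91. Their log2 fold changes with fasting ran from -0.14 for Ndrg3.2 to -1.04 for Ciart. For Abca1 they were Rps6ka3, Ptbp3, Sptlc2, Rhoq and AK163148, with r of 0.99 to 0.98, and their log2 fold changes with leptin against fasted mice ran from 0.48 for Rhoq to 0.82 for Rps6ka3. Sptlc2 encodes a subunit of serine palmitoyltransferase, which begins sphingolipid synthesis.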

How the data were processed

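Per the labels and the study's methods, the authors mapped TRAP reads with HISAT2 and assigned them to genes with featureCounts, using a GRCm38 annotation changed to reduce overlaps, and aligned ATAC-seq reads to mm10 with Bowtie2, called peaks with MACS2 and counted reads with BEDtools. The deposited values used here are raw read counts per gene or peak. Counts were scaled by TMM and tested with edgeR 4.0.16 (R 4.3.3, quasi-likelihood) for features with a mean over 1 CPM, with Benjamini-Hochberg adjustment over all of them, and called where FDR was below 0.05 and the log2 fold change beyond 0.5 in either direction, the study's thresholds. CPM levels use the scaling over all 17 RNA libraries. DESeq2 1.42.0 and other settings were alternatives. The scripts were tested on simulated counts. p-values measure the spread between pools. Within AgRP RNA, same-numbered libraries deviated together (r = 0.587 to 0.853 over 10 pairs), so the numbers were taken to pair them. Peaks were assigned by their nearest edge within 50 kb of a GENCODE start site. All members are named. Lss, Cyp51, Abcg1, Nr1h2, Mylip and list genes called in AgRP neurons were also to be named, and 3 genes of that rule are not reported here. The members and gene lists were chosen with earlier results of these data known. Whole-arcuate RNA, CUT&RUN and CPM tables were not used here.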

Additional observations from a re-analysis of the deposited data

Results flagged for a closer look

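Among 14 groups of 4 libraries (7 genes in fasted and leptin-treated AgRP neurons), 2 held a library far from its group by Dixon's ratio, the gap to the nearest library over the group's range, being above its 95% critical value. Chance gives such a result in about 1 of 20 groups. For Abca1 in fasted AgRP neurons the ratio was 0.882, with replicate 4 at 84.4 CPM and the other libraries at 38.5 to 44.0 CPM. For Insig1 in the same group the ratio was 0.832, with replicate 2 at 57.9 CPM and the other libraries at 42.1 to 44.7 CPM.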

How the results depend on the processing

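With 2 to 4 pools a group, depth limits Idi1 (105 to 341 counts per library) and the weaker peaks most. Among the members' expression calls, those of Abca1 changed between settings, and that of Sqle where no fold change minimum was set. Abca1 made the count of members called higher 1 with DESeq2 and 1 with the replicate block for AgRP leptin against fasted, AgRP leptin against fed and POMC leptin against fed. Without a fold change minimum 1 member, Sqle, was called lower for AgRP leptin against fed. For AgRP against POMC, members called lower were 1 in fed and 1 in leptin-treated mice with a block on number, and 0 in fasted mice with that state alone. AgRP and POMC libraries of the same number come from different mouse lines and did not deviate together, so that block has no pairing behind it. Leaving out a replicate gave 0 to 1 called higher for AgRP leptin against fasted and against fed, and 0 to 1 called lower for AgRP against POMC in fasted mice.

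Peak counts followed the window. Within 10 kb they were 0 higher and 0 lower for fasting, 1 higher for leptin against fasted, 1 higher and 2 lower for leptin against fed, and 1 higher and 1 lower for sorted nuclei. Within 200 kb they were 23 and 13, 5 higher, 38 and 19, and 18 lower, where for sorted nuclei only the lower count is given. The numbers of peaks tested in these windows are not given, so these counts cannot be set against the shares of all peaks. At an FDR under 0.01, 2 were lower with fasting and 4 for leptin against fed. A block made leptin against fasted 4 higher. ATAC-seq libraries share only a number (r = -0.00869 to 0.193). Same-numbered POMC libraries deviated together (r = 0.779 to 0.81), but with 2 a state their numbers were not taken to pair them. The block called the Abca1 start-site peak lower with fasting (-0.65, FDR 0.0490) and changed no other count by over 1.5 times. Leaving out a replicate gave 3 to 6 higher and 1 to 5 lower with fasting, 1 to 2 higher for leptin against fasted, 9 to 13 higher and 2 to 8 lower for leptin against fed, and 5 to 7 higher and 3 to 5 lower for sorted nuclei.

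Signs turned for sorted start-site peaks under library size alone (Sqle 0.0146, Insig1 0.0139, Fdft1 0.0108, and, with smaller changes than their SE, Hmgcs1 and Abca1), and on leaving out a POMC replicate for Lss in AgRP against POMC in leptin-treated mice (-0.78 to 0.0601), while other sign changes of values smaller than their SE were not counted. The causes were not tested.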
